A study of Mus musculus with 6 samples.

Results

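The replication-dependent histone genes of the mouse are a family of small, mostly single-exon genes that supply the histone proteins for newly copied DNA. Their members were taken by symbol: every protein-coding gene of the GENCODE M21 annotation (genome build GRCm38) whose name begins with Hist1h, Hist2h, Hist3h or Hist4h. This gave 67 of the 36047 genes to which the quantified transcripts could be joined, namely 6 H1 (linker histone), 18 H2a, 18 H2b, 12 H3 and 13 H4 genes. Of these, 54 lie in the Hist1 cluster on chromosome 13, 10 in the Hist2 cluster on chromosome 3, 2 in the Hist3 cluster on chromosome 11 and 1, Hist4h4, on chromosome 6.

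The study sequenced total RNA from the infarct area of hearts of C57BL/6 mice aged 12 weeks, 48 h after ischemia/reperfusion (I/R). I/R is a temporary closure of a coronary artery followed by reflow. In 3 mice LGK-974 was given, an inhibitor of Porcupine, the enzyme that attaches the lipid without which Wnt proteins are not secreted, and 3 mice received the vehicle DMSO. All 6 mice had I/R, so no uninjured heart enters any comparison. The libraries hold 41579787 to 80398211 estimated counts.

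Nucleosomes consist of DNA wound around a core of H2A, H2B, H3 and H4, and H1 binds the linker DNA between them. The genes of this family are transcribed mainly in S phase, under the coactivator NPAT, and their mRNAs end in a stem-loop bound by SLBP in place of a poly(A) tail. Most cardiomyocytes of an adult heart do not divide, whereas leukocytes, fibroblasts and endothelial cells of an infarct can. Some members also give polyadenylated mRNAs in cells that do not divide. Selection on poly(A) would lose most of these mRNAs. The libraries were instead depleted of ribosomal RNA and enriched with a capture kit.

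The stem-loop is shown first because it defines the class and could be read from the annotated transcripts. The sequence after the stop codon was searched for a stem of 6 base pairs that begins with GG followed by 4 pyrimidines, and a loop of 4 bases that begins with TT. A match was found in 44 of the 67 members, 21 to 58 bases after the stop codon, and in 10 other genes among the 21674 protein-coding genes searched, members included. Of the 23 members without a match, 15 have fewer than 16 annotated bases after the stop codon, so that the element could not have been found there. The capitals below mark the arms of the stem and the lower-case letters the loop, on the coding strand of GRCm38.

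Hist1h2ap, chr13:21833029-21833044, minus strand, a form found in 26 members: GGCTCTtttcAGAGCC
Hist1h3c, chr13:23745047-23745062, minus strand, a form found in 6 members: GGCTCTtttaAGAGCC
Hist2h2ac, chr3:96220418-96220433, minus strand, found in 1 member: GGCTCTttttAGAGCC
Hist1h4d, chr13:23581950-23581965, plus strand, found in 7 H4 genes: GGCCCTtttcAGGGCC
Hist2h4, chr3:96262939-96262954, minus strand, found in 2 H4 genes: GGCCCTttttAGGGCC
Hist1h4b, chr13:23757366-23757381, plus strand, found in 2 H4 genes: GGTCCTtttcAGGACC

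The opening GG and the first TT of the loop were set by the search, and the loops differ in their last base. A GGCTCT arm was found in members of the H1, H2a, H2b and H3 types, and the GGCCCT and GGTCCT arms in H4 genes.

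The coding sequences of the family are so alike that many reads fit several genes. When each member's transcripts were divided into overlapping words of 31 bases, 39 members shared at least 50% of their words with another gene, and 19 shared at least 80%. The median shared percentage was 3.78% in H1, 74.9% in H2a, 53.4% in H2b, 61.0% in H3 and 47.9% in H4. Kallisto, the program the authors used, splits such reads between genes by estimation. The value of a single H2a, H2b, H3 or H4 gene is therefore uncertain, and the sums over a type are given before the genes. Words also occur in genes outside the members, for H2a genes from 10.4% (Hist1h2ac) to 89.3% (Hist1h2ai) of their words. A sum over the type does not remove the uncertainty of reads shared with those genes.

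Levels below are CPM, estimated counts scaled to a common library total, which was adjusted for each library's composition by the trimmed mean of M values (TMM). Within each triplet the values stand in the order of replicates 1, 2 and 3. Summed over the 67 members, the level was 836, 737 and 1107 CPM with LGK-974 and 454, 738 and 640 CPM with DMSO. The means were 893 ± 192 (SD, n = 3) and 611 ± 145 (SD, n = 3), or 1.46-fold higher with LGK-974. The groups overlapped, since LGK-974 replicate 2 lay just below DMSO replicate 2. Without DMSO replicate 1, the lowest library, the ratio was 1.30. In tissue RNA, more cells that express a gene and more of its mRNA per cell cannot be told apart.

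DMSO replicate 1 stands apart and enters every comparison on these genes. It lay farthest from the other libraries on the first principal component of all tested genes, which held 63.7% of the variance. In 1501 genes of the olfactory, vomeronasal and taste receptor families, whose products act chiefly in sensory organs, the median was 33.9 counts per kb of transcript in this library, against 3.16 to 12.5 in the others. The median over the histone members was 195 counts per kb in DMSO replicate 1 and 305 to 1002 elsewhere. This library was the lowest of the 6 in 47 of the 61 members that could be tested, and LGK-974 replicate 3 was the highest in 48. LGK-974 replicate 3 also had the smallest share of mitochondrial counts, 28.2%, against 39.3% to 53.7% in the other libraries. The part of these library differences in the results was not tested.

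**Figure D1:**
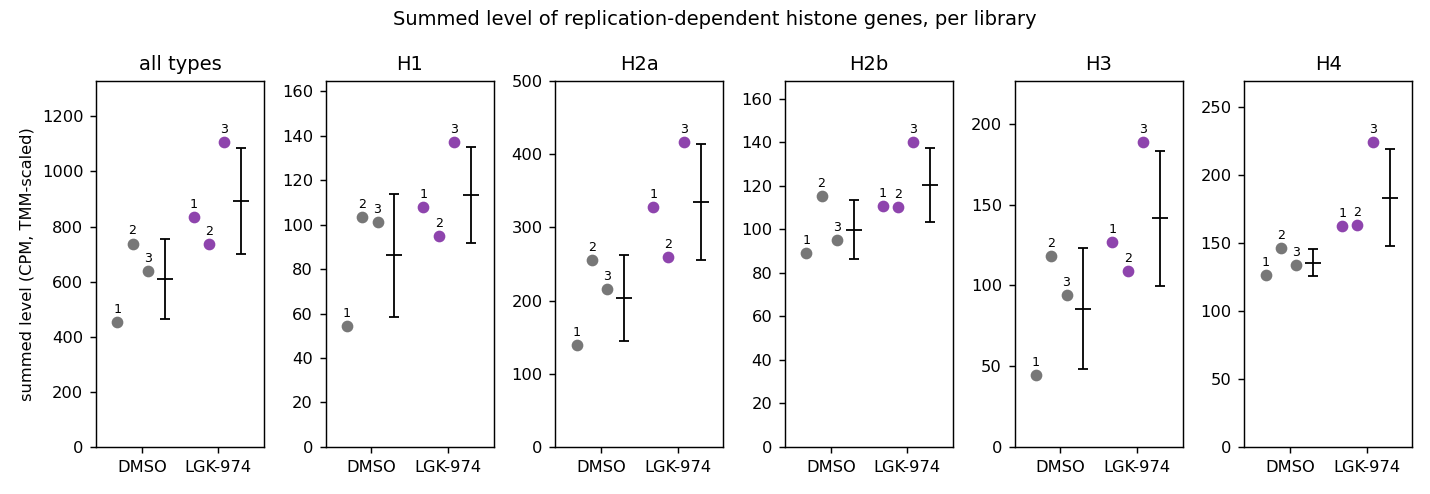
Summed level of the replication-dependent histone genes in each library, in TMM-scaled CPM on axes that begin at 0, for all 67 members and for each type. Points are libraries numbered by replicate, and the bars beside them show the mean and SD of 3 libraries. The H2a and H4 sums of the groups do not overlap, while the other sums do, and DMSO replicate 1 is the lowest point in every panel.

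Among the types, H2a and H3 had the largest ratios. The H2a sum was 328, 259 and 417 CPM with LGK-974 and 139, 256 and 216 CPM with DMSO, a ratio of 1.64. Every LGK-974 library was above every DMSO library, but LGK-974 replicate 2 exceeded DMSO replicate 2 by little. Without DMSO replicate 1 the ratio was 1.42.

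The H3 sum was 127, 109 and 189 CPM with LGK-974 and 44.7, 118 and 93.8 CPM with DMSO, a ratio of 1.65. It depended more on the lowest library, since without DMSO replicate 1 the ratio was 1.34, and the groups overlapped.

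The H4 sum was the steadiest within the vehicle group. It was 162, 163 and 224 CPM with LGK-974 and 126, 146 and 134 CPM with DMSO, a ratio of 1.35 without overlap. Leaving out DMSO replicate 1 gave 1.31. Hist4h4 alone gave 49.7 of the 126 CPM in DMSO replicate 1, against 12.0 and 5.08 CPM in DMSO replicates 2 and 3. The evenness of the vehicle sums and the small move of the ratio depend on that gene.

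The H1 and H2b sums differed least. For H1 the values were 108, 94.9 and 137 CPM against 54.2, 103 and 101 CPM with DMSO, a ratio of 1.31 that was 1.11 without DMSO replicate 1. For H2b they were 111, 110 and 140 CPM against 89.3, 115 and 95.1 CPM, a ratio of 1.21 that was 1.15 without DMSO replicate 1. Both types overlapped between the groups.

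On the deposited TPM scale, which accounts for transcript length, H2a held 47.1% to 52.5% of the family's summed level within a library, H4 18.9% to 23.1%, H2b 11.9% to 17.3%, H3 10.4% to 14.7% and H1 3.15% to 4.33%. The ranges of H2b and H3 overlap. Hist1h2ap and Hist1h2ak, both H2a genes of the Hist1 cluster, were the 2 highest members by TPM in all 6 libraries, with Hist1h2ap first in 5 of them. As a share of the family's CPM within a library, H2a made up 35.2% to 39.3% with LGK-974 and 30.7% to 34.6% with DMSO. These did not overlap, but the ends were adjacent, in replicate 2 of each group. On the TPM scale the same libraries had 48.25% and 48.23%. The 30.7% was in DMSO replicate 1, where Hist4h4 alone gave 49.7 of the family's 454 CPM. The shares of the other types overlapped between the groups.

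Each gene was then compared between the groups in a fit over the 20094 genes that reached 10 counts in 3 or more libraries, with the quasi-likelihood test of edgeR and p-values adjusted by Benjamini-Hochberg. No gene of the whole table had an adjusted p under 0.05 (0%), and the lowest adjusted p was 0.368. An unadjusted p under 0.05 was reached by 2699 genes, of which 1257 were higher with LGK-974 and 1442 lower, and DESeq2 gave 289 genes at an adjusted p under 0.05.

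Of the 67 histone genes, 61 entered this fit. The 6 that did not were Hist1h1t, Hist1h2aa, Hist1h2ba, Hist3h2ba, Hist1h2ao and Hist1h4m, with at most 70 counts each over the 6 libraries. Hist1h1t, Hist1h2aa and Hist1h2ba are known as histones of the testis. Hist1h2ao and Hist1h4m share 93.8% and 91.7% of their words with other members.

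None of the 61 passed the adjusted threshold. The fitted log2 fold change was above 0 in 55 of 61 and below 0 in 6, with a median of 0.67 beside -0.13 for all tested genes. Of the 61, 15 (24.6%) were higher at an unadjusted p under 0.05, beside 6.26% of all tested genes, and 0 were lower, beside 7.18%. In 17 members (27.9%) all LGK-974 libraries were above all DMSO libraries, beside 10.7% of all tested genes, and in 1 member, Hist2h2be, all were below, beside 7.27%. Without DMSO replicate 1 the median was 0.45, with 15 members higher at an unadjusted p under 0.05, beside 7.12% of all genes in that fit, and 1 lower, Hist1h1c, beside 3.89%. Among the fits that leave out 1 library, the count moved most without LGK-974 replicate 3, where 4 members were higher, beside 3.23% of all genes, and the median was 0.48. Without LGK-974 replicate 1 it was 9, beside 4.29%, and without DMSO replicate 2 it was 25, beside 5.49%.

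**Figure D2:**
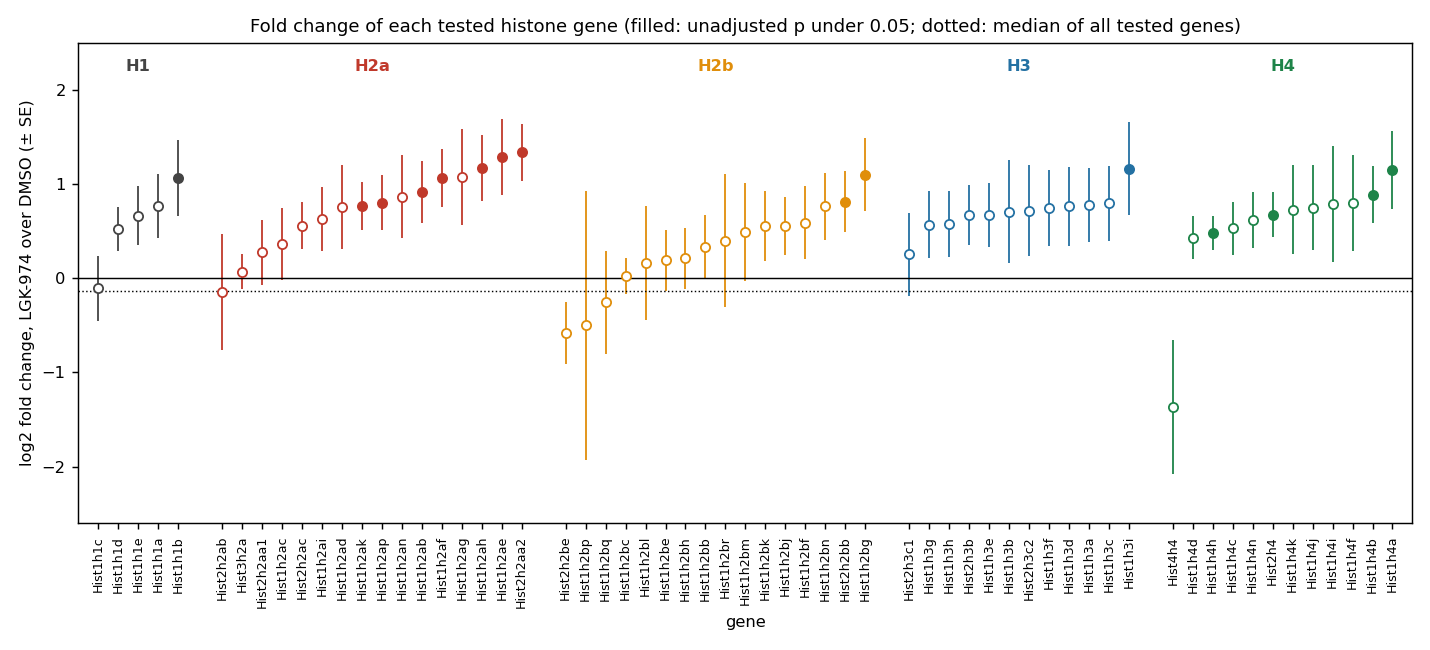
Log2 fold change of LGK-974 over DMSO with its standard error for the 61 tested histone genes, ordered within each type. Filled points have an unadjusted p under 0.05, and the dotted line marks the median of all tested genes, -0.13. Most points lie above 0, with Hist4h4 at -1.37 as the lowest and Hist2h2aa2 at 1.34 as the highest.

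By type, 7 of 16 tested H2a genes (43.8%) were higher at an unadjusted p under 0.05 (median log2 fold change 0.78), as were 4 of 12 H4 genes (33.3%, 0.70), 1 of 12 H3 genes (8.33%, 0.71), 1 of 5 H1 genes (20%, 0.66) and 2 of 16 H2b genes (12.5%, 0.37), beside 6.26% of all tested genes. The H3 share is near that background. Without LGK-974 replicate 3, 4 H2a genes and 0 genes of the other types were at that level. All 12 H3 genes had a fitted value above 0. Their spread was wide, with DMSO replicate 1 far below the rest in most of them.

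**Figure D3:**
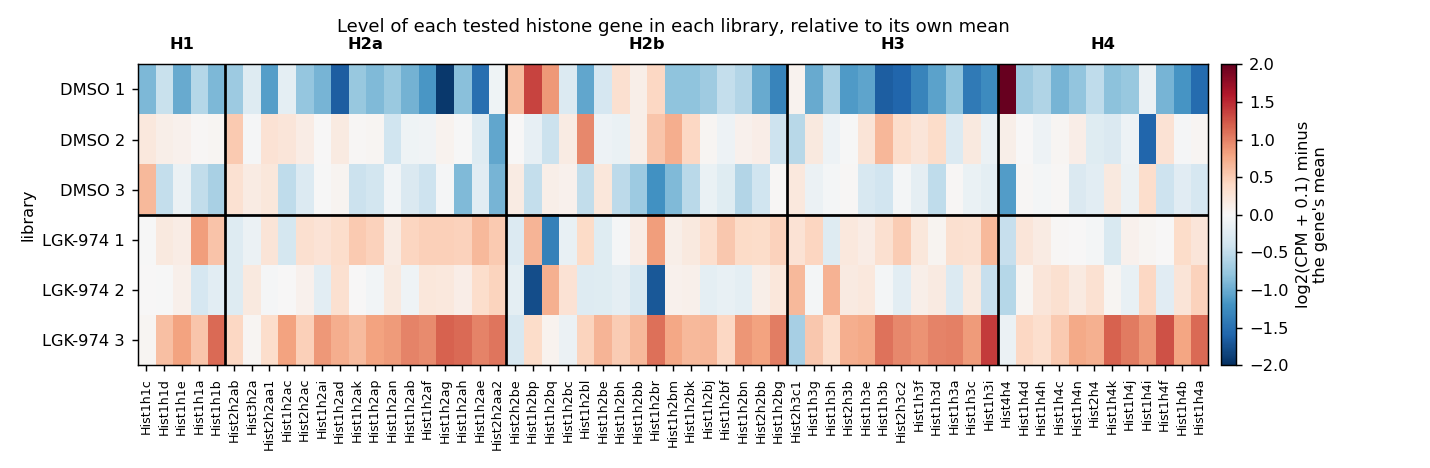
Level of each tested histone gene (columns, grouped by type and ordered by fold change) in each library (rows), as log2(CPM + 0.1) minus the gene's own mean, from blue (lower) to red (higher) with colours limited at ±2. The row of DMSO replicate 1 is mostly blue and that of LGK-974 replicate 3 mostly red, while the other 4 libraries lie closer together.

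H2A pairs with H2B in the nucleosome, and its genes held the largest share of the family on the TPM scale. Hist1h2ap (ENSMUSG00000094777, chr13:21833026-21833507, minus strand) had 79.7, 55.6 and 101 CPM with LGK-974 and 31.3, 59.3 and 44.8 CPM with DMSO. LGK-974 replicate 2 lay within the DMSO range. Its log2 fold change was 0.80 ± 0.29 (SE), with an adjusted p of 0.368 by edgeR's quasi-likelihood test (Benjamini-Hochberg). Hist1h2ak (chr13:21753435-21753827) had 54.97, 38.4 and 58.8 CPM against 22.4, 38.8 and 28.2 CPM, and replicate 2 of each group again nearly coincided.

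Hist1h2af (chr13:23533906-23534304) is an H2a gene whose groups did not overlap. It had 22.5, 19.1 and 31.1 CPM with LGK-974 and 7.19, 15.5 and 12.1 CPM with DMSO, a log2 fold change of 1.06 ± 0.30 (SE). The same order was seen for Hist1h2ah, with 10.2, 8.19 and 16.4 CPM against 4.12, 7.38 and 3.98 CPM. Hist1h2ab had 15.9, 11.1 and 23.6 CPM against 6.06, 11.1 and 9.65 CPM, where the lowest LGK-974 value was almost the highest DMSO value.

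Hist2h2aa2 (ENSMUSG00000063954, chr3:96239749-96240276, minus strand) had the smallest p of the family. Its level was 19.0, 18.1 and 27.9 CPM with LGK-974 and 12.5, 6.39 and 6.90 CPM with DMSO. The log2 fold change was 1.34 ± 0.30 (SE), with an adjusted p of 0.368 by edgeR's quasi-likelihood test and of 0.00871 by DESeq2, both with Benjamini-Hochberg adjustment. It was the only member called by DESeq2, which called 0.853% of the genes it tested higher with LGK-974. Unlike most members it was highest, not lowest, in DMSO replicate 1 among the vehicle libraries.

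Every 31-base word of Hist2h2aa2 also occurs in another gene, its neighbour Hist2h2aa1 (chr3:96245497-96246082, plus strand), so that none of its words is its own. Hist2h2aa1 had 49.7, 40.7 and 53.1 CPM against 19.3, 50.6 and 48.7 CPM, overlapping, with a log2 fold change of 0.28 ± 0.34 (SE). Summed over the pair, the levels were 68.8, 58.7 and 81.0 CPM against 31.7, 56.9 and 55.6 CPM. The groups of the sum did not overlap, at a ratio of 1.45, or 1.24 without DMSO replicate 1. The call by DESeq2 therefore concerns an estimated division of reads, within the pair and with other genes. Hist2h2aa2 shares words with 24 genes, and 59.0% of its words also occur in genes that are not members.

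Among the H4 genes, which encode the most conserved core histone, Hist1h4d (chr13:23581598-23582735) had the most counts. Its level was 50.2, 43.8 and 56.5 CPM with LGK-974 and 25.8, 42.7 and 43.1 CPM with DMSO, without overlap but with adjacent ends. Hist1h4b had 28.5, 26.3 and 38.3 CPM against 9.73, 21.8 and 18.9 CPM. Hist1h4h had 24.4, 25.6 and 27.4 CPM against 14.2, 20.1 and 21.2 CPM, with the LGK-974 libraries close together. Hist1h4a had 11.1, 12.95 and 20.7 CPM against 3.17, 9.60 and 7.37 CPM, a log2 fold change of 1.15 ± 0.41 (SE).

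Hist2h4 (ENSMUSG00000091405, chr3:96261682-96263311, minus strand) shares only 2.31% of its words with other genes, so that few of its reads needed to be divided. Its level was 7.42, 9.44 and 12.6 CPM with LGK-974 and 5.38, 6.47 and 6.58 CPM with DMSO. The groups did not overlap, and the log2 fold change was 0.68 ± 0.24 (SE), or 0.60 without DMSO replicate 1. The adjusted p was 0.368 by edgeR's quasi-likelihood test (Benjamini-Hochberg).

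Hist4h4 (chr6:136801553-136804415, minus strand) went against the rest of its type through 1 library. It had 8.02, 7.48 and 10.3 CPM with LGK-974 and 49.7, 12.0 and 5.08 CPM with DMSO. The log2 fold change was -1.37 ± 0.71 (SE), and 0.03 without DMSO replicate 1. This is the same library in which the receptor families above had their highest counts.

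H3 carries most of the well-known histone marks. Hist2h3b (chr3:96268654-96269141), the H3 gene with the highest TPM in all 6 libraries, had 25.4, 24.8 and 36.2 CPM with LGK-974 and 9.95, 21.9 and 22.4 CPM with DMSO, without overlap. Hist2h3c2 had 21.8, 13.2 and 29.6 CPM against 5.002, 19.4 and 14.8 CPM, and Hist1h3b 11.9, 9.33 and 20.3 CPM against 2.97, 15.1 and 7.32 CPM, both overlapping. Hist1h3e was similar, at 12.5, 13.03 and 19.1 CPM against 5.40, 13.6 and 8.96 CPM. Hist1h3h and Hist1h3i, which share 85.3% of their words with each other, summed to 13.2, 10.2 and 21.9 CPM against 4.80, 9.21 and 9.01 CPM, a ratio of 1.97 without overlap, and 1.66 without DMSO replicate 1.

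Of the H2b genes, the one with the most counts had nearly the same level in both groups. Hist1h2bc (ENSMUSG00000018102, chr13:23684199-23692908, plus strand) had 38.2, 51.7 and 38.8 CPM with LGK-974 and 34.9, 47.1 and 45.0 CPM with DMSO. Its groups lay over each other, with a log2 fold change of 0.02 ± 0.19 (SE). Hist2h2bb, which shares 7.98% of its words, had 11.03, 9.27 and 15.0 CPM against 4.20, 9.39 and 6.46 CPM, and its groups overlapped by replicate 2 of each.

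The remaining H2b genes named here had fewer counts. Hist1h2bg had 7.02, 5.92 and 10.4 CPM against 1.96, 3.76 and 5.16 CPM, without overlap, at a log2 fold change of 1.10 ± 0.39 (SE). Hist1h2br and Hist1h2bq, which share 89.5% and 98.3% of their words, were high in different libraries, and their sum was 10.97, 8.88 and 15.8 CPM against 15.2, 10.9 and 7.02 CPM. Hist1h2be had 5.03, 5.08 and 9.69 CPM against 4.73, 5.61 and 7.02 CPM. Its annotated exons overlap those of Hist1h1e by 496 bases on the same strand, so their reads there cannot be told apart.

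Hist2h2be was the only tested member with all LGK-974 libraries below all DMSO libraries. It had 2.04, 2.16 and 1.97 CPM with LGK-974 and 3.95, 2.503 and 2.80 CPM with DMSO, at a log2 fold change of -0.58 ± 0.33 (SE). Its words are nearly all its own (2.82% shared), and its transcript is annotated with 2192 bases after the stop codon.

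The linker histones had the lowest median of shared words, although Hist1h1e, whose exons overlap those of Hist1h2be, shares 34.7%. Hist1h1e had 33.2, 31.9 and 51.9 CPM with LGK-974 and 14.8, 31.6 and 27.4 CPM with DMSO, without overlap by a narrow margin. Hist1h1d had 24.3, 21.0 and 32.0 CPM against 15.5, 23.0 and 15.2 CPM, and Hist1h1a 10.7, 4.72 and 8.80 CPM against 3.97, 6.08 and 4.20 CPM, both overlapping. Hist1h1b, named here after its values were seen, was the H1 gene with an unadjusted p under 0.05, with a log2 fold change of 1.07 (unadjusted p = 0.0304 by edgeR's quasi-likelihood test).

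Hist1h1c (ENSMUSG00000036181, chr13:23738808-23740367, plus strand), the H1 gene with the highest TPM in 5 of 6 libraries, did not follow the others. With LGK-974 it was nearly constant, at 32.4, 32.6 and 33.3 CPM, while the DMSO libraries spread over 17.3, 37.5 and 51.1 CPM. The log2 fold change was -0.11 ± 0.34 (SE), and -0.42 without DMSO replicate 1.

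Several of the members with fold changes near or below 0 are annotated with long sequence after the stop codon, which can mark a polyadenylated form. This grouping was chosen with such values in view, and it is given as a description. Of the 17 members with at least 500 annotated bases after the stop codon, 1 (5.88%) was higher at an unadjusted p under 0.05. This was Hist2h4. The share is near the 6.26% of all tested genes, and the median log2 fold change was 0.25. Of the 44 tested members with fewer, 14 (31.8%) were higher and the median was 0.75. Without LGK-974 replicate 3 these counts were 0 and 4, beside 3.23% of all genes in that fit. The same 2 sets summed to 252, 262 and 320 CPM against 217, 262 and 249 CPM for the long ones, a ratio of 1.14, and to 584, 475 and 787 CPM against 236, 476 and 390 CPM for the short ones, a ratio of 1.67. Without DMSO replicate 1 the ratios were 1.09 and 1.42. Both sums overlapped between the groups. The data do not show which 3' end the counted molecules had.

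**Figure D4:**
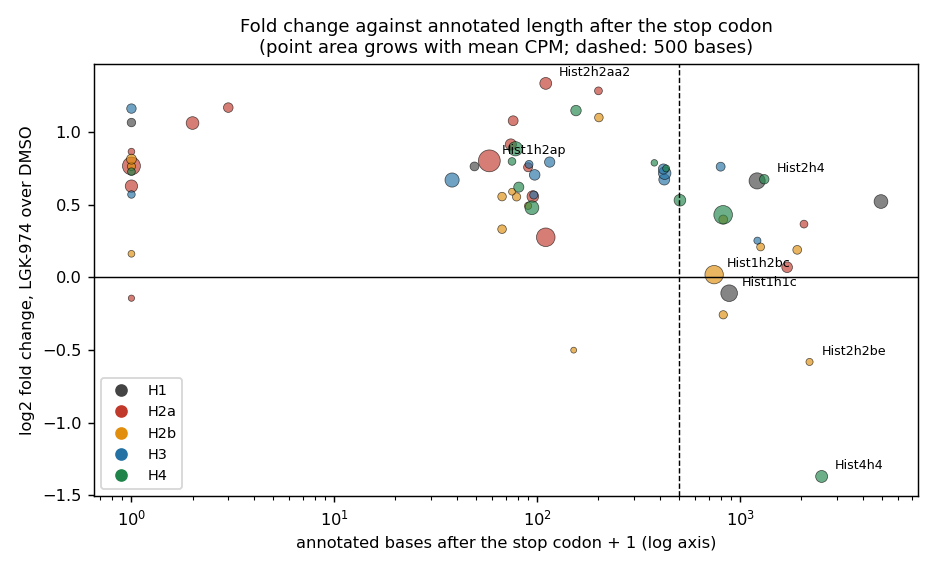
Log2 fold change of LGK-974 over DMSO of the 61 tested histone genes against the annotated number of bases after the stop codon plus 1, on a log axis, coloured by type, with point area growing with mean CPM. The dashed line stands at 500 bases. Left of it the median is 0.75, and right of it 0.25, with Hist4h4 and Hist2h2be as the lowest points.

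H2a and H2b genes often lie head to head with a shared promoter region. There were 12 such divergent pairs with starts under 500 bases apart, all of an H2a and an H2b gene, with 176 to 306 bases between the starts. Both genes were tested in 10 pairs, and in 8 of these both had a fitted value above 0. Of all 61 tested members, 55 had such a value, so pairs of other members would often be alike too. The median difference between partners was 0.43 on the log2 scale, and it was not compared with that of other pairs. The pair with the nearest starts, 176 bases apart, is Hist1h2ae and Hist1h2bg. Hist1h2ae had 5.51, 4.48 and 7.03 CPM against 1.16, 2.88 and 2.95 CPM, a log2 fold change of 1.28 ± 0.40 (SE) beside the 1.10 of Hist1h2bg given above. Partners were most alike in fold change in the pair of Hist1h2ak (0.77) and Hist1h2bn (0.76). Partners differed most in the pair of Hist1h2an (0.87) and Hist1h2bp (-0.50), followed by Hist2h2ac (0.56) and Hist2h2be (-0.58).

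The promoter of Hist1h2ae and Hist1h2bg is shown because every LGK-974 library was above every DMSO library for both partners. It was also chosen because it holds an octamer motif, ATTTGCAT, the site of OCT1 in H2b promoters. It is the RefSeq sequence of Hist1h2bg (GRCm38.p6, chr13:23571150-23571449, plus strand), 250 bases before the start to 50 after it, with the octamer in capitals. The start of Hist1h2ae lies within it on the other strand.

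Hist1h2bg: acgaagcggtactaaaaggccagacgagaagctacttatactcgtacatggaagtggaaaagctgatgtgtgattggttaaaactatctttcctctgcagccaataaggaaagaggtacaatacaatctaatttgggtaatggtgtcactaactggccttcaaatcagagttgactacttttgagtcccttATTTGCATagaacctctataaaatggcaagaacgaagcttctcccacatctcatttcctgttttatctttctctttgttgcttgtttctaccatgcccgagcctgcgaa

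Over the 61 members with a RefSeq promoter, searched on both strands, the octamer was present in 7 of 17 H2a (41.2%) and 7 of 16 H2b promoters (43.8%) and in 0 of the H1, H3 and H4 promoters, against 1.74% of 32851 promoters of that length. Partners of a divergent pair share most of this window, so these are not independent sequences. The letters CCAAT were present in all H1, H2a, H2b and H3 promoters and in 3 of 12 H4 promoters (25%), against 37.4% of all promoters. TATAAA was present in 40% (H3) to 66.7% (H1, H4), against 13.6%. AAACACA, a sequence known from H1 promoters, was present in 5 of 6 H1 promoters, against 7.18%. None of these motifs contains another. They are matches of letters and not measured binding.

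Genes of the machinery that makes and ends these mRNAs had a median fold change below that of the members. Slbp, the stem-loop binding protein, had 15.8, 15.97 and 17.5 CPM with LGK-974 and 15.6, 16.8 and 11.8 CPM with DMSO. Npat had 17.2, 15.3 and 17.3 CPM against 14.4, 17.4 and 14.5 CPM. Both overlapped between the groups. Of 20 genes of histone mRNA processing, 3 (15%) were higher at an unadjusted p under 0.05, beside 6.26% of all tested genes, 0 were lower, and the median log2 fold change was 0.16. Without DMSO replicate 1 the count was 1, and it was also 1 without LGK-974 replicate 3. The 3 were Casp8ap2, whose product FLASH acts in cleavage of the stem-loop mRNA (0.48), and Cpsf2 (0.40) and Cpsf3 (0.32), subunits of the cleavage complex.

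Of 11 genes of histone variants that are made throughout the cell cycle, 2 (18.2%) were higher and 0 lower at that level. Their median was 0.25. Of all tested genes, 6.26% were higher and 7.18% lower. Without DMSO replicate 1 the count was again 2, and without LGK-974 replicate 3 it was 0. H2afz, which encodes H2A.Z, had 32.1, 23.2 and 36.6 CPM against 12.4, 21.7 and 19.4 CPM, and H3f3b, which encodes H3.3, had 124, 116 and 140 CPM against 73.8, 95.7 and 100.4 CPM. Neither overlapped between the groups. Of 22 histone chaperones and partners, 4 (18.2%) were higher and 0 lower, with a median of 0.27, or 6 without DMSO replicate 1 and 0 without LGK-974 replicate 3. The 4 include Supt16 of the FACT complex (0.49) and Chaf1a of the CAF-1 complex (0.69), which deposits new H3 and H4 behind the replication fork.

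Of 44 genes of S phase and DNA replication, 8 (18.2%) were higher and 0 lower at an unadjusted p under 0.05, beside 6.26% of all tested genes, with a median of 0.32. The count was 11 without DMSO replicate 1 and 3 without LGK-974 replicate 3. Ccna2, which encodes cyclin A2, had 32.0, 23.9 and 33.3 CPM with LGK-974 and 12.5, 15.0 and 14.6 CPM with DMSO, a log2 fold change of 1.08 ± 0.18 (SE). Pcna, the sliding clamp of DNA polymerase, had 31.5, 29.3 and 29.9 CPM against 17.6, 25.7 and 22.1 CPM, at 0.47 ± 0.17 (SE). Mcm3 of the replicative helicase was at 0.86. The sum of the list, 553, 471 and 686 CPM against 554, 466 and 416 CPM, overlapped between the groups through DMSO replicate 1. The ratio was 1.19, and without that library it was 1.29 with no overlap.

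Of the lists on proliferation, that of mitosis had the highest median. Of its 20 genes, 14 (70%) were higher and 0 lower at an unadjusted p under 0.05, beside 6.26% of all tested genes, with a median of 0.83. The count was 16 without DMSO replicate 1 and 8 without LGK-974 replicate 3. Their sum was 590, 405 and 665 CPM with LGK-974 and 279, 327 and 305 CPM with DMSO, a ratio of 1.82 without overlap, or 1.75 without DMSO replicate 1. Mki67, a protein of cycling cells, had 267, 170 and 275 CPM against 96.3, 131 and 128 CPM. The mitosis sum was highest in LGK-974 replicate 3 and lowest in DMSO replicate 1, with replicate 2 the lowest of the LGK-974 group. The sums of the histone members, histone variants, histone chaperones, leukocyte markers and fibroblast markers had this order too. The S phase sum did not, since DMSO replicate 1 was its highest vehicle library.

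**Figure D5:**
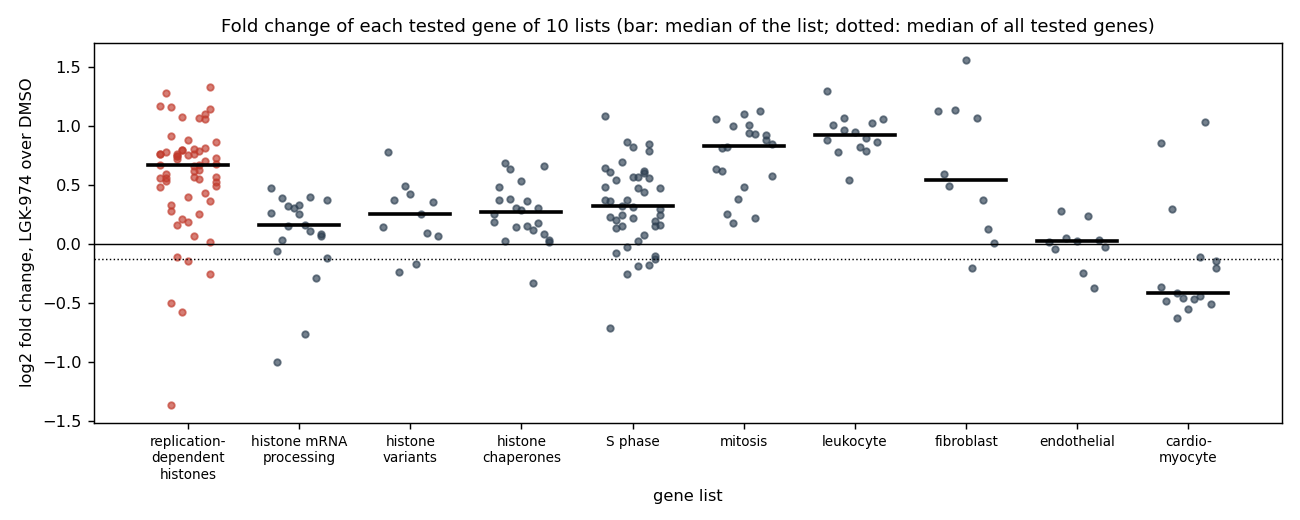
Log2 fold change of LGK-974 over DMSO of every tested gene in 10 lists, with the median of each list as a bar and the median of all tested genes, -0.13, as a dotted line. The medians of the replication-dependent histones (0.67), mitosis (0.83) and leukocyte genes (0.92) lie highest, and the cardiomyocyte median (-0.42) lowest.

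Of the cell type lists, most leukocyte markers and part of the fibroblast markers were higher with LGK-974 at an unadjusted p under 0.05. Of all tested genes, 6.26% were higher and 7.18% lower at that level. Cardiomyocyte markers were abundant in all libraries, which fits the labelled tissue, and their 15 genes summed to 44096 to 64394 CPM with LGK-974 and 49798 to 69371 CPM with DMSO. Of them 12 had a fitted value below 0, with a median of -0.42. However, Nppa (1.04) and Actc1 (0.86), or 13.3%, were higher at an unadjusted p under 0.05. The 14 leukocyte markers summed to 692, 623 and 815 CPM against 336, 415 and 366 CPM. At that level 13 of 14 (92.9%) were higher, led by Lyz2 of macrophages and other myeloid cells. By flow cytometry at the same time after I/R, the study reported fewer leukocytes and myeloid cells with LGK-974. Those are cell counts of whole hearts and not RNA of the infarct area, and the difference was not tested. The 10 fibroblast markers summed to 3875, 3448 and 5995 CPM against 1705, 2503 and 2454 CPM. Of them 4 of 10 (40%) were higher, led by Postn of activated fibroblasts (1.56). Neither of these sums overlapped between the groups, and without DMSO replicate 1 their ratios were 1.82 and 1.79. The 10 endothelial markers had a median of 0.02, with 0 higher and 0 lower. Without LGK-974 replicate 3 the counts higher were 11 leukocyte, 4 fibroblast, 1 cardiomyocyte and 0 endothelial markers, beside 3.23% of all genes in that fit. Without DMSO replicate 1 they were 13, 4, 2 and 0, beside 7.12%, and 2 cardiomyocyte markers were lower, beside 3.89%.

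None of the lists of other blood cells had a sum that separated the groups. Of the 10 neutrophil markers 6 were tested, of which 1 was lower at an unadjusted p under 0.05, beside 7.18% of all tested genes. Without DMSO replicate 1, 0 were lower, beside 3.89% of all genes in that fit, and 1 was higher, beside 7.12%. Without LGK-974 replicate 3, 0 were lower and 0 higher. The list summed to 34.7 to 50.8 CPM with LGK-974 and 44.4 to 85.3 CPM with DMSO. The 10 T and B cell markers summed to 20.7 to 25.9 CPM and 23.3 to 58.9 CPM, with DMSO replicate 1 the highest and none of the 10 past an unadjusted p of 0.05. The 8 erythroid markers summed to 45.5 to 59.6 CPM and 48.3 to 57.8 CPM. The part of leukocytes, fibroblasts or cardiomyocytes in the histone values was not tested, since the libraries were made from whole tissue. Porcn, the target of LGK-974, was at 1.80, 1.94 and 2.85 CPM against 2.14, 1.39 and 2.28 CPM and overlapped between the groups.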

How the data were processed

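The members and gene lists were chosen with earlier results of these data known. The authors quantified transcripts with Kallisto on an index of GRCm38 and deposited, for each of the 6 libraries, estimated counts and TPM of 118489 transcripts; the version of the program and read trimming are not given in the sources used here. Of the transcripts, 98.6% joined GENCODE M21 genes, and the deposited estimated counts of a gene's transcripts were added up and rounded to whole numbers. The TPM values deposited by the authors served for shares by type and for 1 alternative.

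Libraries held 41579787 to 80398211 estimated counts. The 20094 genes that reached 10 counts in 3 or more libraries were scaled by TMM and tested with edgeR 4.0.16 (R 4.3.3) by glmQLFit and glmQLFTest, 3 LGK-974 against 3 DMSO libraries, Benjamini-Hochberg adjusted over all of them. DESeq2 1.42.0 was the alternative, on all genes with a count. Sums over members have no test, and an exact permutation test of 3 against 3 could not go below 0.1. Nothing in the labels says how mice were assigned to replicates, so p-values measure only the spread between these samples. Named members are the 4 of each type with the highest mean CPM and the 10 with the smallest p. Others are named where a count or a pair is described. Named genes of the other lists are up to 3 with the smallest p, with Slbp, Npat, Mki67, Pcna and Porcn.

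In simulated counts with the fitted dispersion, 200 genes were changed by a log2 fold of 2. Of these edgeR recovered 66% and DESeq2 71%, with 6 of 138 and 38 of 180 calls false. The histone log2 fold changes ran from -1.37 to 1.34, and no simulated library stood apart. These rates therefore do not carry over to the histone genes. The pairing of replicate numbers was checked by the correlation of deviations from group means, which was on average 0.27 for same numbers (-0.05 to 0.47) and -0.14 for others. Word, stem-loop and motif searches used the GENCODE transcripts and RefSeq promoters. The promoters were matched to 61 of 67 members by Ensembl gene identifier, or else by symbol or synonym. Hist1h2ap, Hist1h2bc, Hist1h3a, Hist1h3f, Hist2h2be and Hist2h4 had no promoter sequence.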

Additional observations from a re-analysis of the deposited data

How the results depend on the processing

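The median log2 fold change of the tested histone genes stayed above 0, and above that of all tested genes, in every alternative run, and was 0.45 to 0.84 when each library was left out in turn. The number of histone genes at an unadjusted p under 0.05 was 15 and moved to 36 with no filter on low counts (35 higher, beside 4.08% of all genes, and 1 lower, beside 9.9%), 24 with scaling by the total count only (all higher, beside 4.7%), 27 with the replicate number as a block (replicate block, all higher, beside 6.02%) and 4 to 25 with each library left out, lowest without LGK-974 replicate 3. Not every same-numbered pair of libraries correlated, so the number was not taken as a pairing. The number of genes called at an adjusted p under 0.05 was 0 in the edgeR fit and with the replicate block, 289 by DESeq2, 324 by DESeq2 without DMSO replicate 1 (added after seeing the data), 1206 with no filter and 0 to 2 with each library left out. Scaling by the total count moved the median of all tested genes from -0.13 to 0.08. Log2 ratios of the sums, with each library left out, were 0.39 to 0.72 for all members, 0.16 to 0.62 for H1, 0.52 to 0.92 for H2a, 0.21 to 0.39 for H2b, 0.43 to 1.02 for H3 and 0.33 to 0.57 for H4. From TPM they were larger, at 1.11, 0.85, 1.18, 0.91, 1.16 and 1.07 in the same order. Scaling by the total count gave 0.51 for H2b and 0.69 for H4, single-exon transcripts gave 0.49 for H2b, and members sharing under 10% of their words gave 0.50 for H2b (2 members) and 0.68 for H4 (1 member, Hist2h4). Direction reversed, at log2 fold changes mostly near 0, in 5 named genes. For Hist1h1c it was 0.020 with the replicate block, 0.064 by total count and -0.42 to 0.35 with each library left out. For Hist1h2bc it was -0.10 by DESeq2 without DMSO replicate 1 and -0.086 to 0.17 with each library left out, for Hist1h2be -0.24 with single-exon transcripts and -0.13 to 0.46, for Hist2h2aa1 -0.050 by DESeq2 without DMSO replicate 1 and -0.035 to 0.54, and for Hist4h4 0.012 by DESeq2 without that library and -1.70 to 0.030. The causes were not tested. Alternatives that could not give a value were the sums of H2a and H3 over members sharing under 10% of their words, since there were none.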
